A study of Mus musculus with 20 samples.

Results

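Antioxidant and NRF2 target genes were followed in the islet transcriptome of mice lacking Mitofusin 1 (Mfn1), Mitofusin 2 (Mfn2) or both in β-cells. The set held 36 listed genes of the 28632 in the count table, chosen by name as the superoxide dismutases, catalase, peroxidases, thiol carriers, glutathione enzymes and regulators of the NRF2 pathway, and all 36 were found by their Ensembl identifiers. RNA sequencing had been performed on islets of 12-week-old male and female mice, isolated with collagenase and cultured for 24 h. The 20 libraries fell into 4 groups: 6 Ctrl, 4 β-Mfn1KO (Mfn1 loxP/loxP with Ins1-Cre), 5 β-Mfn2KO (Mfn2 loxP/loxP with Ins1-Cre) and 5 β-Mfn1/2DKO (both genes floxed, with Ins1-Cre). The Ctrl libraries are labelled wild type, whereas the study pooled Ins1-Cre mice and floxed mice without Cre as its controls, and which Ctrl library carried which allele was not given. By sex, the libraries were 3 female and 3 male in Ctrl, 3 and 1 in β-Mfn1KO, and 2 and 3 in each of β-Mfn2KO and β-Mfn1/2DKO. Because the Cre is driven from the Ins1 locus, islet α-, δ-, endothelial and exocrine cells were expected to keep both mitofusins. This was not measured by cell type, because each library measured all of these cells together. The labels do not tie libraries to animals, whereas the study gives the number per group as mice; p-values here measure the spread between libraries.

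NRF2, encoded by Nfe2l2, is a transcription factor that binds antioxidant response elements next to genes for detoxifying and thiol-reducing enzymes. KEAP1 holds NRF2 in the cytosol and has it degraded until oxidants or electrophiles modify KEAP1 cysteines. The enzymes downstream work in relay: superoxide dismutases convert superoxide to hydrogen peroxide, which catalase, the glutathione peroxidases and the peroxiredoxins then remove. Of these, the glutathione peroxidases and the peroxiredoxins draw electrons from NADPH through glutathione or thioredoxin. Pancreatic β-cells are known for low catalase and low glutathione peroxidase activity, and rely largely on peroxiredoxins and thioredoxin to clear hydrogen peroxide.

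The core of the antioxidant response element, TGACNNNGC, was searched on both strands of the RefSeq promoter windows (GRCm38.p6, 250 bases before to 50 bases after the start), as the sequence through which NRF2 is known to act. Windows were available for 30 of the 36 genes, and 6 of these (20%) held the letters, against 13.99% of all 27025 genes with a window. Prdx6, Gsr, Sod3, Gsta4, Hmox1 and Gclc had no window and were not searched. Matches mark which of the searched genes hold these letters close to their start. The 6 are shown 5′ to 3′ on the strand on which the motif reads forward, with the motif in capitals:
Prdx1: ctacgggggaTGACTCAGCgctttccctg
Srxn1: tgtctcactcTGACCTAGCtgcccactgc
Gclm: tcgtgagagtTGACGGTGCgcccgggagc
Txnrd1: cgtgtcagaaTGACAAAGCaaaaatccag
Sod1: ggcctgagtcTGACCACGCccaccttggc
Nfe2l2: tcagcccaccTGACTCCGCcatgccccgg
All 6 were printed from the minus strand, at chr4:116685456-116685484 for Prdx1, chr2:152105542-152105570 for Srxn1, chr3:122245413-122245441 for Gclm, chr10:82859104-82859132 for Txnrd1, chr16:90220696-90220724 for Sod1 and chr2:75704885-75704913 for Nfe2l2. Positions were counted in the direction of the gene, and the motif read on the strand of the gene only for Nfe2l2. In that direction its first base lay −133, −134, −92, −56 and −240 bases from the annotated start of Prdx1, Gclm, Txnrd1, Sod1 and Nfe2l2, respectively. For Srxn1 it lay 29 bases after the start. The Txnrd1 start is an alternative RefSeq one that lies inside the gene as annotated by GENCODE. A match of these letters is a description and not a measured binding site, and enhancers outside the windows were not searched.

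Total counts were 12400687 to 20329064 in the Ctrl, β-Mfn1KO and 3 of the β-Mfn2KO libraries, 55962873 and 59533407 in β-Mfn2KO replicates 4 and 5, and 65533388 to 122947313 in β-Mfn1/2DKO, so that the double knockout and deep sequencing cannot be told apart except through the 2 deep β-Mfn2KO libraries. Mfn1 and Mfn2 were lower in the knockouts that target them, at log2 fold changes of −1.07 ± 0.09 for Mfn1 and −0.75 ± 0.07 for Mfn2 (SE) in β-Mfn1/2DKO against Ctrl. In the same comparison all 8 β-cell markers fell, with a summed level of 2125859 to 2947413 normalized counts in β-Mfn1/2DKO against 5189269 to 8672918 in Ctrl. One of these, Ins1, is the locus of the Cre and was also lower in the single knockouts. Its mean was 817829 normalized counts in β-Mfn1KO and 753680 in β-Mfn2KO, against 1444210 in Ctrl. All 5 endothelial markers rose (7071 to 11478 against 4802 to 7178 summed normalized counts). Fewer cells of a type and less RNA per cell cannot be told apart in whole islets. In the study, β-cell mass did not differ significantly by genotype in mice slightly younger than these. Of 10 acinar markers 9 were higher, with summed levels of 641701 and 1649877 normalized counts in β-Mfn1/2DKO replicates 4 and 5, whereas the other 3 (17109 to 28897) lay inside the Ctrl range of 11171 to 71003. No marker of the acinar, endothelial or β-cell list was at 0 in any group. Results of the double knockout are therefore also given without replicates 4 and 5 where that changes them.

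In Ctrl islets the antioxidant genes covered a wide range of levels per length. Gpx3, the glutathione peroxidase secreted into plasma, was the most abundant at 9768 ± 3446 normalized counts per kb of exon (mean ± SD, n = 6), followed by the phospholipid hydroperoxidase Gpx4 (4548 ± 335 per kb) and the glutathione transferases Gstp1 (4239.8 ± 686 per kb) and Gstm1 (2955 ± 712 per kb). Among the peroxiredoxins, which use cysteine to reduce peroxides, cytosolic Prdx1 (2549.8 ± 104 per kb) and mitochondrial Prdx5 (2436 ± 128 per kb) had close levels. Catalase, the peroxisomal hydrogen peroxide scavenger, ranked 28 of 36 at 182 ± 25.4 normalized counts per kb, and the lowest levels per kb were those of the transferase Gsta4 (17.9 ± 9.03) and the extracellular dismutase Sod3 (9.48 ± 8.81).

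The genes also differed in how much they varied between libraries of 1 group. The coefficient of variation in Ctrl had a median of 8.31% over the 36 genes and was under 10% for 21 of them, with the dismutases Sod1 and Sod2 the steadiest at 3.32% and 3.33%. It was over 50% for 3 scarce genes, Sod3 (92.9%), Gpx8 (74.6%) and Gsta4 (50.5%), and was also high for the cystine importer Slc7a11 (39.0%) and the abundant Gpx3 (35.3%). Gstm1, a mu-class transferase, was split within Ctrl, at 2974, 3069, 5017, 4722, 5310.0 and 5025 normalized counts in replicates 1 to 6, so that replicates 1 and 2 lay far below the rest, and in β-Mfn1KO it ran from 2632 to 5186.

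**Figure D1:**
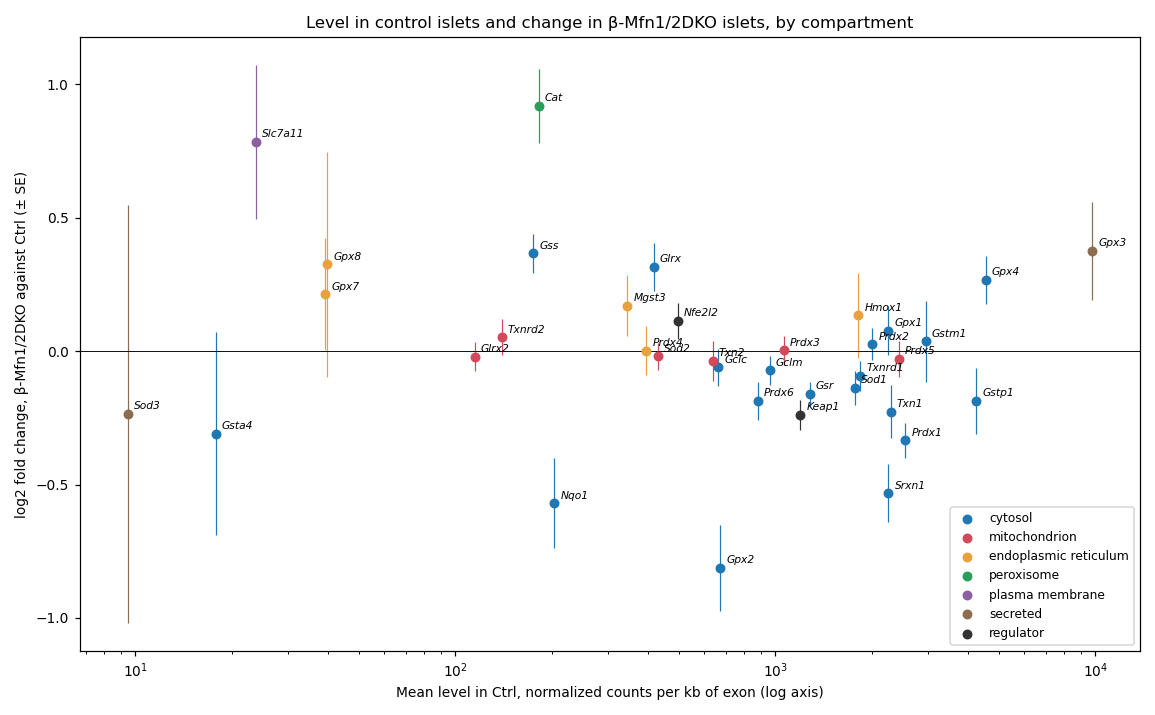
Each point is 1 of the 36 genes, placed by its mean level in the 6 Ctrl libraries (normalized counts per kb of exon, log axis) and its log2 fold change in β-Mfn1/2DKO against Ctrl (bars, SE), and coloured by compartment. The 6 mitochondrial genes sit between −0.04 and 0.05, while the changes past the test are of cytosolic genes, of peroxisomal Cat and of the regulator Keap1.

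In β-Mfn1/2DKO islets catalase rose 1.89-fold, the glutathione peroxidase Gpx2 fell 1.76-fold against Ctrl, and 8 further genes changed by less than 1.5-fold. The genes that rose were Cat, Gss, Glrx and Gpx4, and those that fell were Gpx2, Prdx1, Srxn1, Keap1, Gsr and Nqo1. None of the 6 mitochondrial members (Sod2, Prdx3, Prdx5, Txn2, Txnrd2 and Glrx2) passed the test, and their log2 fold changes lay between −0.04 and 0.05. In all, 10 of 36 members (27.8%) had an adjusted p under 0.05 in β-Mfn1/2DKO against Ctrl, 4 higher and 6 lower, in edgeR's quasi-likelihood fit, adjusted over all 28632 genes by the Benjamini-Hochberg method. Across all genes tested 16.5% passed (9.59% higher and 6.86% lower), and among the 15267 genes with enough counts to be kept by edgeR's filterByExpr, which kept all 36 members, 29.3% passed, so the members' share was near the background. The median log2 fold change was −0.02 over the members and 0.04 over those 15267 genes. Only Cat and Gpx2 also passed a fold of 1.5 (5.56% of members, against 5.21% of all genes tested).

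The split between higher and lower members depended on the scaling. When libraries were scaled to their total counts alone, without the TMM factors, the median gene moved to 0.17 on the log2 scale, 7 members were higher and 2 lower, and Prdx1, Keap1, Gsr and Nqo1 no longer passed. With sequencing depth (above or below 40000000 counts) as a term in the fit, 2 members passed, Prdx1 and Txn1, both lower, while 2.54% of all genes tested passed. When all libraries were thinned to the smallest total, 10 members passed (3 higher and 7 lower), 9 of them among the 10 above. Without β-Mfn1/2DKO replicates 4 and 5, 8 members passed (3 higher and 5 lower), against 11.2% of all genes tested. Of these, 6 were among the 10 above, and the others, Txn1 among them, were lower and did not pass with all 5 libraries. The calls of Gpx4 (0.24), Keap1 (−0.20), Gsr (−0.13) and Nqo1 (−0.52) were lost with log2 fold changes close to those of all 5 libraries. With a score of the acinar markers as a term, 11 members passed (3 higher and 8 lower), 9 of them among the 10 above, and Gpx4 did not (0.24, adjusted p = 0.0938).

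**Figure D2:**
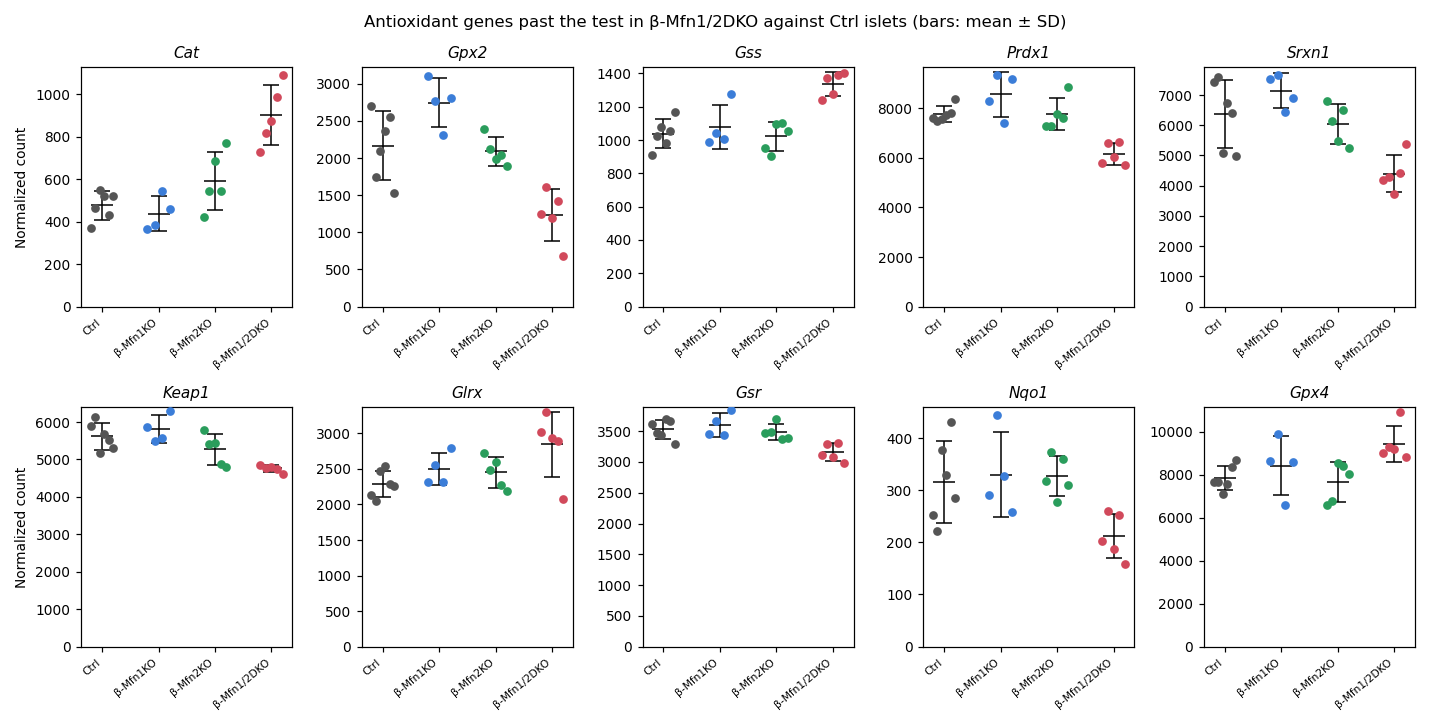
Normalized counts of the 10 genes past the test in β-Mfn1/2DKO against Ctrl, 1 point per library in order of replicate number, with the mean and SD of each group (n = 6 Ctrl, 4 β-Mfn1KO, 5 β-Mfn2KO and 5 β-Mfn1/2DKO). The β-Mfn1/2DKO libraries do not overlap Ctrl for Cat, Gss, Prdx1, Keap1 and Gpx4, while for Gpx2, Srxn1, Glrx, Gsr and Nqo1 at least 1 library lies inside the Ctrl range.

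Of the 2 regulators, Keap1 fell slightly and Nfe2l2 did not pass the test. Keap1 (chr9:21229730-21239361, minus strand, GRCm38) read 4853, 4784, 4808, 4752 and 4598 normalized counts in the 5 β-Mfn1/2DKO libraries, against a lowest, median and highest Ctrl value of 5175, 5594 and 6141. Ctrl values listed below without a label are likewise the lowest, median and highest. The double-knockout values were tight and all below Ctrl (log2 fold change −0.24 ± 0.06, adjusted p = 0.00455). In β-Mfn2KO, Keap1 read 5800.1, 5414, 5438, 4891 and 4787 in replicates 1 to 5, and in β-Mfn1KO 5862, 5491, 5578 and 6306. The 2 deeply sequenced β-Mfn2KO libraries, replicates 4 and 5, were thus the lowest of that group and lay next to the double knockout, and the Keap1 difference with depth as a term was −0.04 (adjusted p = 0.977). Nfe2l2 (chr2:75675513-75704641, minus strand) holds the letters of the element in its own promoter window. It read 1894, 2034, 1933, 2113 and 2209 in β-Mfn1/2DKO and 1701, 1857 and 2064 in Ctrl, with overlapping libraries (0.11 ± 0.07, adjusted p = 0.31). In the single knockouts the Nfe2l2 libraries spanned 1602 to 2076 (β-Mfn1KO) and 1735 to 2041 normalized counts (β-Mfn2KO).

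Of the classical NRF2 targets outside the thiol systems, Nqo1 fell and Hmox1 did not pass. Nqo1, a quinone reductase often used as the readout of NRF2 activity (chr8:107388225-107403206, minus strand), fell 1.48-fold (−0.57 ± 0.17, adjusted p = 0.0212), from a lowest, median and highest Ctrl value of 222, 308 and 431 normalized counts to 203, 260.4, 187, 252 and 159 in the 5 double-knockout libraries. Replicates 2 and 4 lay inside the Ctrl range, and the call did not hold without any 1 of Ctrl replicates 3 and 5 or β-Mfn1/2DKO replicates 1, 3 and 5 (adjusted p up to 0.0683). Nqo1 was at 290.3, 445, 328 and 258 in β-Mfn1KO and 319, 373, 277, 361 and 309.7 in β-Mfn2KO, with only β-Mfn1KO replicate 2 outside the Ctrl range. Hmox1, heme oxygenase of the endoplasmic reticulum and also a target of other stress factors, spread from 2319 to 4722 in Ctrl and from 2584 to 4171 in β-Mfn1/2DKO and did not pass (0.13 ± 0.16, adjusted p = 0.652).

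Within glutathione synthesis and reduction, Gss and Glrx rose and Gsr fell. Gss, the synthetase that adds glycine in the last step of glutathione synthesis (chr2:155563181-155592810, minus strand), rose 1.29-fold (0.37 ± 0.07, adjusted p = 0.000984). Its double-knockout libraries read 1239.7, 1374, 1278, 1393 and 1399.9 normalized counts, all above the Ctrl values of 913, 1039 and 1171 (lowest, median and highest). The single knockouts read 985, 1042, 1008 and 1275 in β-Mfn1KO, where replicate 4 reached the double-knockout values, and 951, 905, 1098, 1099 and 1054 in β-Mfn2KO, where none did. Exons of Gss overlap those of Acss2 on the opposite strand, which had 117% as many counts, and the strand setting of the counting was not given, so the counts of Gss are uncertain. The catalytic and modifier subunits of glutamate-cysteine ligase, the rate-limiting enzyme, did not pass, with Gclc at −0.06 ± 0.07, adjusted p = 0.644 and Gclm at −0.07 ± 0.06, adjusted p = 0.458; Gclm in the double knockout read 5994, 6005, 5799.6, 5804 and 5148, with replicate 5 the lowest.

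Slc7a11, the cystine importer that supplies cysteine for glutathione, varied widely between libraries. It read 429, 479.9, 431, 553 and 991 in β-Mfn1/2DKO against 191, 312 and 480.2 in Ctrl, so replicates 1 to 3 lay inside the Ctrl range and replicate 5 was far above all others. The log2 fold change of 0.78 ± 0.29 (SE, adjusted p = 0.0678) went down to 0.44 (adjusted p = 0.403) without replicates 4 and 5, the libraries with high acinar markers. It passed in 5 of the 20 fits that left out 1 library, and with total-count scaling (0.92, adjusted p = 0.0164). Gsr, the NADPH-dependent reductase that recycles oxidized glutathione, fell 1.12-fold (−0.16 ± 0.05, adjusted p = 0.0173), from 3287, 3550.1 and 3704 in Ctrl to 3118, 3299, 3086, 3311 and 2977. Replicates 2 and 4 lay just inside the Ctrl range, and β-Mfn1KO (3456, 3671, 3435 and 3845) and β-Mfn2KO (3467, 3482, 3696, 3373 and 3388) overlapped Ctrl. The call did not hold without any 1 of β-Mfn1/2DKO replicates 1, 3 and 5 (adjusted p up to 0.087).

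The glutaredoxins, which use glutathione to reduce protein disulfides, gave 1 call, in the cytosol. Cytosolic Glrx rose 1.25-fold (0.32 ± 0.09, adjusted p = 0.0168), at 3019, 3301, 2941, 2901 and 2082 normalized counts against 2048, 2274 and 2539.7 in Ctrl. Replicates 1 to 4 were above every Ctrl library, and replicate 5, with the highest acinar markers, was near the bottom of the Ctrl range; without replicates 4 and 5 the log2 fold change was 0.45 (adjusted p = 0.00028). Glrx read 2319.7, 2557, 2317 and 2797 in β-Mfn1KO and 2722, 2491, 2592, 2269 and 2196 in β-Mfn2KO. Mitochondrial Glrx2 was at −0.02 ± 0.06, adjusted p = 0.848.

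Among the glutathione peroxidases, the epithelial Gpx2 carried the largest decrease of all 36 genes. Gpx2 (chr12:76792333-76795554, minus strand) read 1244, 1616, 1196, 1424 and 682 normalized counts in β-Mfn1/2DKO, 1535, 2232 and 2707 in Ctrl (lowest, median and highest), 3098, 2774, 2309.7 and 2805 in β-Mfn1KO and 2392, 2124, 1992, 2046 and 1886 in β-Mfn2KO. Only β-Mfn1/2DKO replicate 2 lay inside the Ctrl range, and all 5 lay below every single-knockout library (−0.81 ± 0.16, adjusted p = 0.00097 against Ctrl). Leaving out any 1 library kept the log2 fold change between −0.90 and −0.66 with adjusted p up to 0.00336, and without replicates 4 and 5 it was −0.66 (adjusted p = 0.00242). With depth as a term the value was −0.67 and the adjusted p 0.277.

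Gpx4, which protects membranes by reducing lipid hydroperoxides, rose 1.2-fold (0.27 ± 0.09, adjusted p = 0.0462). Its libraries read 8988, 9285, 9175, 10913 and 8799 in β-Mfn1/2DKO and 7099, 7664 and 8698 in Ctrl, without overlap but with only a narrow gap, and 8634, 9882, 6571 and 8582 in β-Mfn1KO and 6570.2, 6752, 8536, 8380.0 and 8035 in β-Mfn2KO. The call was close to the threshold and did not hold in 8 of the 20 fits that left out 1 library (adjusted p up to 0.103), and 29.8% of the 75-base stretches of Gpx4 are shared with its pseudogene Gpx4-ps2. The secreted Gpx3 read 20403, 24233, 19085, 19446 and 31751 in the double knockout, 10888, 17379 and 28954 in Ctrl and 18932, 17184, 13643, 12339.5 and 13164 in β-Mfn2KO. It did not pass against Ctrl (0.38 ± 0.18, adjusted p = 0.184) and passed against β-Mfn2KO (0.61 ± 0.19, adjusted p = 0.0371), where the libraries were separated by a narrow margin; in β-Mfn1KO it read 20358, 17765, 16851 and 20447. The ubiquitous Gpx1 (0.08 ± 0.09, adjusted p = 0.651) and the endoplasmic reticulum peroxidases Gpx7 (0.21 ± 0.21, adjusted p = 0.575) and Gpx8 (0.32 ± 0.42, adjusted p = 0.669) did not pass, the latter pair on means of 50.6 ± 13.4 and 41.8 ± 31.2 normalized counts in Ctrl (SD, n = 6).

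None of the 4 glutathione transferases, which conjugate glutathione to electrophiles, passed in β-Mfn1/2DKO. The adjusted p was 0.372 for Gstp1 (log2 fold change −0.19 ± 0.12), 0.909 for Gstm1 (0.04 ± 0.15), 0.379 for microsomal Mgst3 (0.17 ± 0.12) and 0.653 for Gsta4 (−0.31 ± 0.38). Gstp1 was split inside the double knockout: replicates 1 to 3 read 5024, 5295 and 4553 normalized counts, at or under the lowest Ctrl value of 5457, and replicates 4 and 5 read 6509 and 7469. Counts of Gstp1 are uncertain because 29.2% of its 75-base stretches also occur in Gstp2.

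Among the peroxiredoxins and sulfiredoxin, Prdx1 and Srxn1 fell and the other 5 did not pass. Prdx1 (chr4:116685544-116700822, plus strand), the abundant cytosolic peroxiredoxin, read 5789.8, 6588, 6028, 6649.6 and 5724 normalized counts in β-Mfn1/2DKO, 7494, 7674 and 8368 in Ctrl, 8277, 9351, 7408 and 9192 in β-Mfn1KO and 7284, 7266, 7769, 7614 and 8864 in β-Mfn2KO. All 5 double-knockout libraries were below every one of the other 15 (1.26-fold lower than Ctrl, −0.33 ± 0.07, adjusted p = 0.000989). Of the 10 genes past the test it was the one that still passed with depth as a term (−0.48, adjusted p = 0.025), and it missed the threshold under total-count scaling (−0.20, adjusted p = 0.0777).

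Srxn1, the sulfiredoxin that repairs peroxiredoxins inactivated by excess peroxide (chr2:152105516-152111376, plus strand), fell 1.45-fold (−0.53 ± 0.11, adjusted p = 0.00128). It read 4184, 4281, 3738, 4430.2 and 5379 in β-Mfn1/2DKO against 4969, 6570.2 and 7594 in Ctrl, and replicate 5 alone was inside the Ctrl range. In the single knockouts it read 7545, 7663, 6429.8 and 6908 (β-Mfn1KO) and 6818, 6147, 5494, 6511 and 5239 (β-Mfn2KO). Prdx1 and Srxn1 both held the letters of the response element in their windows, as did Gclm, Txnrd1, Sod1 and Nfe2l2, which did not pass. Of the remaining peroxiredoxins, Prdx6, which also has phospholipase activity, was at −0.19 ± 0.07, adjusted p = 0.076, and cytosolic Prdx2 (0.03 ± 0.06), mitochondrial Prdx3 (0.00 ± 0.05) and Prdx5 (−0.03 ± 0.07) and the endoplasmic reticulum enzyme Prdx4 (0.00 ± 0.09) had adjusted p-values from 0.817 to 1. Prdx2 and Prdx5 overlap highly counted genes on the opposite strand (Junb and Trmt112), so their counts are uncertain.

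The thioredoxin system, which reduces the peroxiredoxins, gave no call in the main comparison. Cytosolic thioredoxin, Txn1, read 1824, 2025, 1658, 2344 and 2466 normalized counts in β-Mfn1/2DKO and 2273, 2410.1 and 2515 in Ctrl. Replicates 1 to 3 were below every Ctrl library and replicates 4 and 5 were inside the Ctrl range (−0.23 ± 0.10, adjusted p = 0.132), and without replicates 4 and 5 the gene passed (−0.37, adjusted p = 0.0131). Its reductase Txnrd1 was at −0.09 ± 0.06, adjusted p = 0.31, and mitochondrial Txn2 and Txnrd2 were at −0.04 ± 0.07 and 0.05 ± 0.07 (SE).

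Of the dismutases and catalase, which handle superoxide and hydrogen peroxide, catalase alone passed in β-Mfn1/2DKO against Ctrl. Cat (chr2:103453849-103485160, minus strand) read 729.6, 819, 874, 987 and 1088 normalized counts in β-Mfn1/2DKO, all above the highest Ctrl library (372, 492 and 547, lowest, median and highest). The rise of 1.89-fold (0.92 ± 0.14, adjusted p = 6.33e-05) was the largest among the 10 genes, and leaving out 1 library kept it between 0.84 and 1.01 on the log2 scale. Without replicates 4 and 5 it was 0.79 (adjusted p = 0.0011), and with depth as a term 0.66 (adjusted p = 0.191). In β-Mfn2KO, Cat read 420.3, 543, 684, 542 and 769, with replicates 3 and 5 above every Ctrl library (0.32 ± 0.14, adjusted p = 0.925), and in β-Mfn1KO 363, 382, 544 and 457. The cytosolic dismutase Sod1 (−0.14 ± 0.06, adjusted p = 0.167), the mitochondrial Sod2 (−0.02 ± 0.05, adjusted p = 0.846) and the extracellular Sod3 (−0.23 ± 0.78, adjusted p = 0.882) did not pass.

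**Figure D3:**
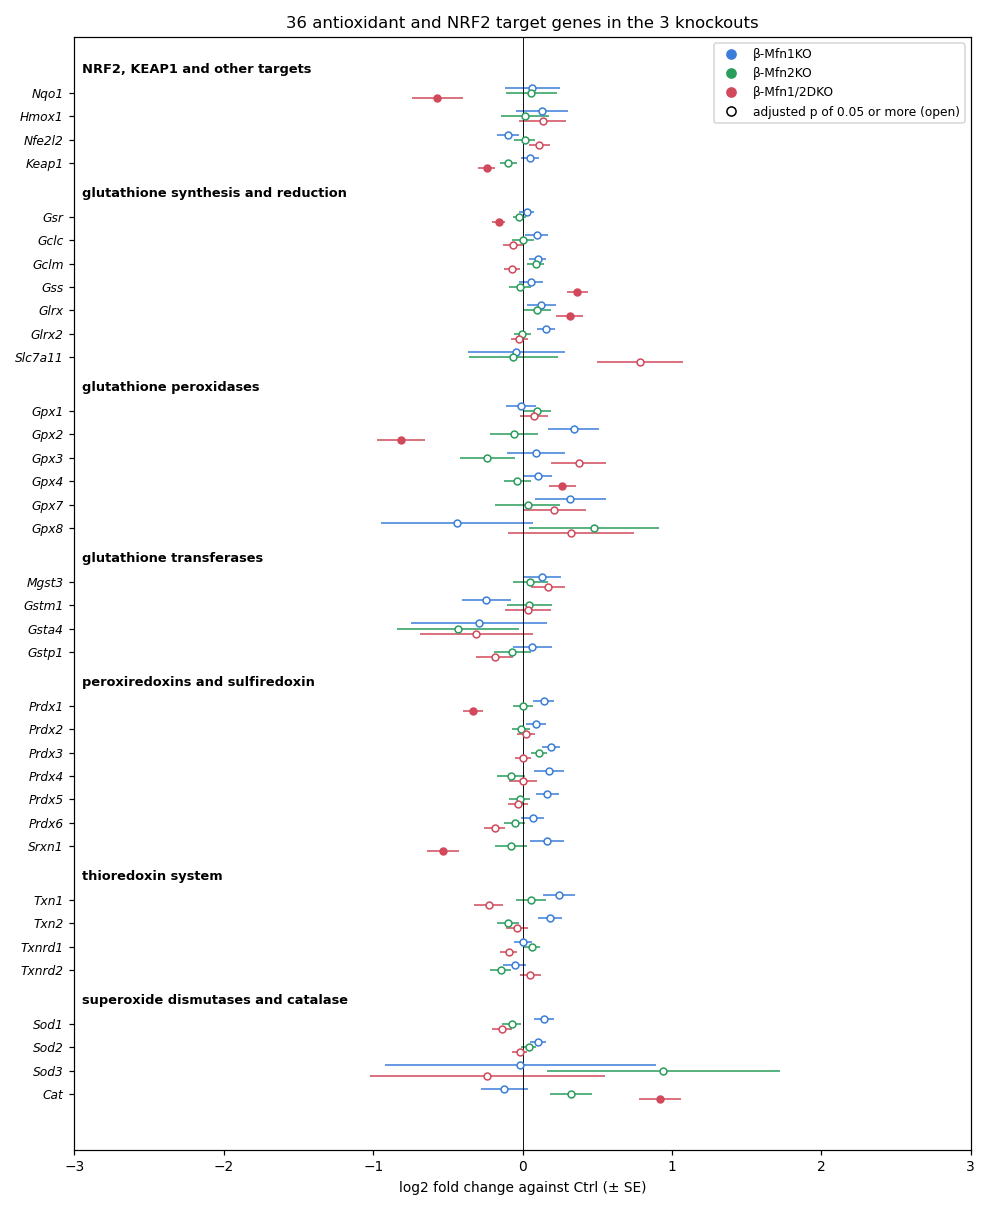
Log2 fold changes against Ctrl (points) with SE (bars) of the 36 genes in the 3 knockouts, grouped by enzyme class, with filled points for an adjusted p under 0.05. All filled points belong to β-Mfn1/2DKO: Cat, Gss, Glrx and Gpx4 to the right of 0, and Gpx2, Nqo1, Srxn1, Prdx1, Keap1 and Gsr to the left.

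By compartment, 8 of the 19 cytosolic members passed in β-Mfn1/2DKO against Ctrl (3 higher and 5 lower, median log2 fold change −0.14), none of the 6 mitochondrial members (median −0.02), and none of the 5 of the endoplasmic reticulum (median 0.17), against 29.3% of all genes kept by filterByExpr. The compartment is the main one each enzyme is known for, although Gpx1, Gpx4 and Prdx5 also have forms elsewhere. The standard errors of the 6 mitochondrial members were 0.05 to 0.07 on the log2 scale. In β-Mfn1/2DKO against β-Mfn1KO, 2 of the 6 were lower, Prdx3 and Glrx2, and the median of the 6 was −0.18. In that comparison 31% of the genes kept by filterByExpr passed. Against β-Mfn2KO no mitochondrial member passed. In the interaction 1 was lower, Prdx3, where 10.9% of the genes kept by filterByExpr passed. Whether the compartments differed from each other was not tested.

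Loss of a single mitofusin gave no member past the test. In β-Mfn2KO 0 of 36 members passed by edgeR and 0 by DESeq2, against 0.0559% of all genes tested, with 1 member, Cat, at an unadjusted p under 0.05 (4.22% of all genes). In β-Mfn1KO 0 passed by either tool, against 0.0279% of all genes. There, 6 members (16.7%) had an unadjusted p under 0.05, against 7.44% of all genes: Sod1, Prdx3, Prdx5, Txn1, Txn2 and Glrx2. The share at this unadjusted p among genes kept by filterByExpr, which kept all 36 members, was not computed. All 6 had values above Ctrl, the largest log2 difference being that of Txn1 (0.24 ± 0.11, SE) and the most precise that of Prdx3 (0.19 ± 0.06). Of these, Prdx3, Prdx5, Txn2 and Glrx2 are mitochondrial. Over the 36 members 27 values were above and 9 below 0 in β-Mfn1KO, with a median of 0.09 against 0.00 over the genes kept by filterByExpr, and in β-Mfn2KO 18 were above and 18 below with a median of 0.00. These comparisons share the Ctrl libraries.

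The question of what Mfn1 adds when Mfn2 is already lost was addressed by β-Mfn1/2DKO against β-Mfn2KO. Gss (0.39 ± 0.08, adjusted p = 0.0012), Cat (0.60 ± 0.14, adjusted p = 0.00638), Gpx3 and Gpx4 (0.30 ± 0.09, adjusted p = 0.0374) were higher, and Gpx2 (−0.76 ± 0.17, adjusted p = 0.00317), Prdx1 (−0.33 ± 0.07, adjusted p = 0.0019), Srxn1 (−0.46 ± 0.11, adjusted p = 0.00804) and Nqo1 (−0.63 ± 0.17, adjusted p = 0.0164) were lower. These were 8 of 36 members (22.2%), against 13% of all genes tested (7.09% higher and 5.9% lower) and 23% of the genes kept by filterByExpr. The split of 4 higher and 4 lower was 7 and 3 with total-count scaling and 3 and 7 with DESeq2 size factors. Among libraries above 40000000 counts alone, 5 β-Mfn1/2DKO and 2 β-Mfn2KO, 3 of the 8 passed (Prdx1, Gss and Gpx3), against 6.3% of all genes tested. The other 5 kept their direction there, with log2 fold changes of 0.50 for Cat, −0.62 for Gpx2, 0.25 for Gpx4, −0.37 for Srxn1 and −0.61 for Nqo1. Without any 1 of 5 libraries Gpx3 did not pass, nor did Gpx4 without any 1 of 3. Without β-Mfn1/2DKO replicates 4 and 5, 2 members were higher and 4 lower, and 4 of the 8 calls held. In that fit 8.68% of all genes tested passed.

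Against β-Mfn1KO the balance was toward lower levels in the double knockout, with 2 members higher (Cat, 1.04 ± 0.16, adjusted p = 6.01e-05, and Gss, 0.31 ± 0.08, adjusted p = 0.00885) and 11 lower. The lower genes were Gpx2 (−1.15 ± 0.17, adjusted p = 5.57e-05), Srxn1 (−0.70 ± 0.12, adjusted p = 0.0002), Prdx1, Txn1, Keap1, Sod1, Gsr, Nqo1, Prdx6, Prdx3 and Glrx2, the last at an adjusted p of 0.0498. The 13 members were 36.1% of the set, against 17.4% of all genes tested (9.67% higher and 7.69% lower) and 31% of the genes kept by filterByExpr. Scaling to total counts gave 7 higher and 4 lower. Without β-Mfn1/2DKO replicates 4 and 5, 3 members were higher and 7 lower, and 7 of the 13 calls held. In that fit 12.5% of all genes tested passed. Beyond the genes already described, Txn1 read 3037, 3016, 2488 and 2897 normalized counts in β-Mfn1KO, all above the double knockout (−0.47 ± 0.11, adjusted p = 0.00335), and Sod1 read 7729, 8499, 6671 and 8180.3 against 6094, 7197, 6443, 6577 and 5705, with partial overlap (−0.28 ± 0.07, adjusted p = 0.00724).

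Whether the effect of losing Mfn1 differed with and without Mfn2 was tested with an interaction term, and 6 members passed (16.7%, against 5.92% of all genes tested, 2.88% higher and 3.03% lower, and 10.9% of the genes kept by filterByExpr). Of these, 5 had a lower value when Mfn2 was also absent: Gpx2 (−1.10 ± 0.24, adjusted p = 0.00647), Srxn1 (−0.62 ± 0.16, adjusted p = 0.0221), Txn1 (−0.53 ± 0.15, adjusted p = 0.0339), Prdx1 (−0.48 ± 0.10, adjusted p = 0.00476) and Prdx3 (−0.30 ± 0.08, adjusted p = 0.0285). Prdx1, Prdx3 and Txn1 had values above Ctrl in β-Mfn1KO alone, at log2 0.14 ± 0.07, 0.19 ± 0.06 and 0.24 ± 0.11, none past the test. Cat alone was higher (0.72 ± 0.21, adjusted p = 0.0476), and passed in only 6 of the 20 fits without 1 library. In these fits Prdx1 and Gpx2 passed in 20, Srxn1 in 18, Prdx3 in 11 and Txn1 in 10. With depth as a term Prdx1 (−0.56), Gpx2 (−1.01) and Txn1 (−0.73) still passed. With total-count scaling the split was 2 higher and 2 lower, with DESeq2 size factors 0 and 6. Without β-Mfn1/2DKO replicates 4 and 5 the split was 0 higher and 4 lower, and 4 of the 6 calls held. In that fit 4.07% of all genes tested passed. Without 1 library the count fell to 2 (Prdx1 and Gpx2) when β-Mfn1KO replicate 1 or replicate 2 was left out and to 3 without β-Mfn1/2DKO replicate 3.

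The wider redox network, given by 7 further lists, was tested in β-Mfn1/2DKO against Ctrl, where 16.5% of all genes tested and 29.3% of those kept by filterByExpr passed. NADPH supply, from which both the glutathione and thioredoxin systems draw electrons, had 3 of 18 genes higher and 5 lower. Nadk, the cytosolic NAD kinase that makes NADP, rose 1.52-fold (0.60 ± 0.05, adjusted p = 7.8e-09), and Aldh1l1, a folate enzyme, rose 2.34-fold (1.23 ± 0.32, adjusted p = 0.00895). Without β-Mfn1/2DKO replicates 4 and 5, Nadk was at 0.58 and Aldh1l1 no longer passed (0.88, adjusted p = 0.104). The lower genes of this list, named after their values were seen, were the NADPH-making enzymes G6pdx (−0.30) and Pgd (−0.26) of the pentose phosphate pathway, cytosolic isocitrate dehydrogenase Idh1 (−0.50) and the folate enzymes Mthfd1 (−0.37) and Aldh1l2 (−0.56), and the third higher gene was Pgls (0.23).

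Of 18 other glutathione genes measured, 5 were higher and 2 lower, where 29.3% of all genes kept by filterByExpr passed. Named after their values were seen, the higher genes included the mitochondrial glutathione importer Slc25a39 (0.54) and Slc3a2, the heavy chain that pairs with Slc7a11 (0.37). Cbs, which opens the transsulfuration route to cysteine, fell 2.01-fold (−1.01 ± 0.15, adjusted p = 7.1e-05). Of 24 further glutathione transferases 7 were higher and 1 lower: Gsto1 (1.09 ± 0.17, adjusted p = 0.000108), Gstm7 (0.96 ± 0.16, adjusted p = 0.000218) and Gsto2 (0.63 ± 0.12, adjusted p = 0.0005) rose, and Ptges, a prostaglandin E synthase of this superfamily, fell 2.02-fold (−1.02 ± 0.13, adjusted p = 6.4e-06). Of these 24 genes, filterByExpr kept 17.

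Other genes of the NRF2 pathway were higher in 6 of 28 cases and lower in 5 (median log2 fold change −0.02); all 28 were kept by filterByExpr, of whose genes 29.3% passed. Aox1, aldehyde oxidase, fell 1.86-fold (−0.89 ± 0.11, adjusted p = 4.95e-06), and the reductase Ptgr1 fell 1.54-fold (−0.63 ± 0.16, adjusted p = 0.00734), whereas the export pump Abcc3 rose 1.59-fold (0.67 ± 0.21, adjusted p = 0.0302). Abcc3 did not pass in 5 of the 20 fits without 1 library, nor without β-Mfn1/2DKO replicates 4 and 5 (0.13, adjusted p = 0.647).

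The thioredoxin-fold and repair genes had 5 of 32 higher and 10 lower, against 29.3% of all genes kept by filterByExpr. The lower ones included oxidoreductases of the endoplasmic reticulum: Ero1lb, the pancreatic oxidase that forms disulfides in nascent proteins, fell 3.12-fold (−1.64 ± 0.16, adjusted p = 2.03e-07), and the disulfide isomerases Pdia6 (−0.76 ± 0.16, adjusted p = 0.00152) and Pdia4 (−0.63 ± 0.14, adjusted p = 0.00302) and the selenoprotein Selenok (−0.83 ± 0.10, adjusted p = 2.31e-06) also fell. Sesn2, a stress-induced sestrin, rose 1.81-fold (0.86 ± 0.08, adjusted p = 9.08e-08), and the selenoprotein Selenow rose 1.52-fold (0.60 ± 0.15, adjusted p = 0.00592). With depth as a term, Nadk (0.58), Sesn2 (1.04), Ero1lb (−1.19), Selenok (−0.80) and Ptges (−0.84) still passed among the genes named here. Selenoprotein synthesis had 3 of 10 genes higher and 1 lower, none beyond 1.5-fold, and the superoxide sources and copper delivery list 1 of 16 higher (Ucp2, 0.30, named after its value was seen) and 1 lower (the monoamine oxidase Maob, −0.81 ± 0.11, adjusted p = 2.3e-05). In all, 55 of the 146 genes of the 7 lists passed (37.7%), and filterByExpr kept 130 of the 146. The share was 16.5% over all genes tested and 29.3% over those kept by filterByExpr. With depth as a term 9 passed, against 2.54% of all genes tested. Without β-Mfn1/2DKO replicates 4 and 5 the number was 40, against 11.2% of all genes tested. For these fits the share among genes kept by filterByExpr was not computed.

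**Figure D4:**
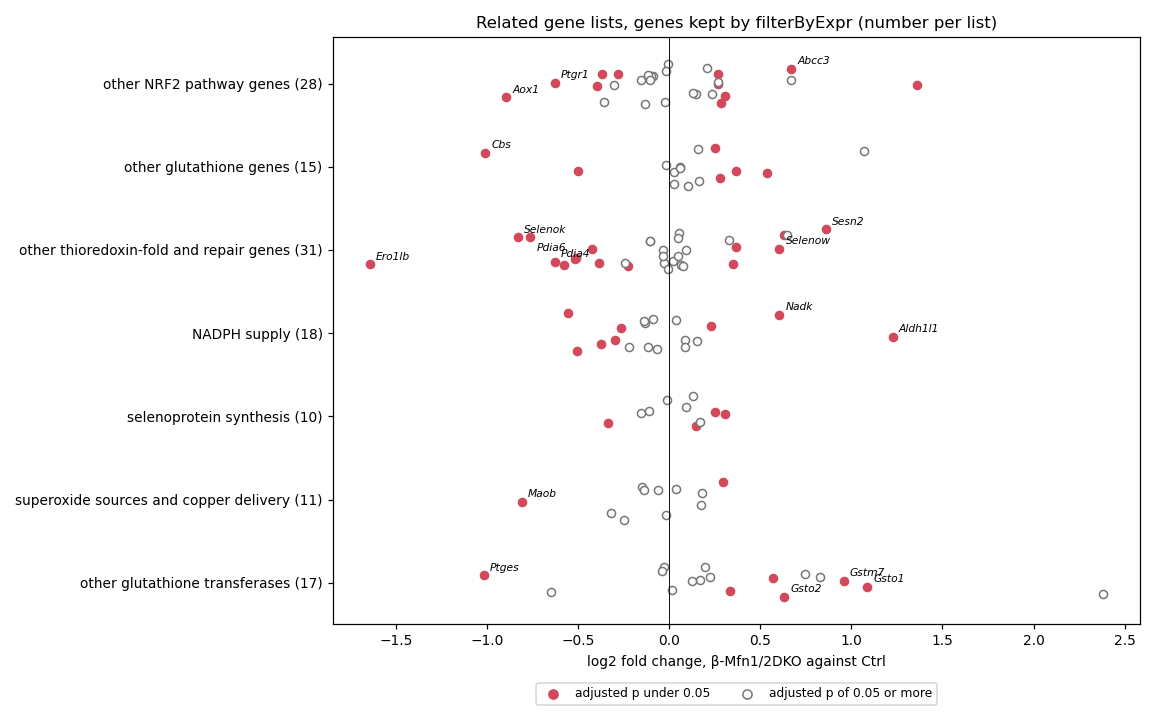
Log2 fold changes in β-Mfn1/2DKO against Ctrl of the genes of the 7 related lists that filterByExpr keeps (number per list in parentheses), with filled points for an adjusted p under 0.05 and arbitrary vertical scatter. Genes past the test lie on both sides of 0 in all 7 lists, and Ero1lb at −1.64 is the lowest value.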

How the data were processed

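RNA sequencing was performed on total RNA of cultured mouse islets. The deposited values are gene-level counts: the authors mapped reads to GRCm38 with STAR 2.6.1b, estimated counts with RSEM 1.3.1 and removed genes at 0 in all libraries; cutadapt 2.3, FastQC 0.11.8 and DESeq2 1.26.0 are also named in their processing notes. A second deposited table of depth-normalized counts was not used. Whether counting used strand was not given in the sources used here.

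Identifiers were matched to GENCODE M21 (28579 of 28632). Counts of all 20 libraries were fitted together by edgeR 4.0.16 (R 4.3.3; TMM scaling, quasi-likelihood test, 1 coefficient per group), with Benjamini-Hochberg adjustment over all genes; a gene passed at an adjusted p under 0.05. Normalized counts are TMM-scaled to the mean effective library size, and SE is the log2 fold change divided by the square root of F. The steps were tested on simulated data. Alternatives were DESeq2 1.42.0, other scalings and filters, added covariates, thinning and left-out libraries. Values were given for members past a 1.5-fold change in any comparison, and for the 10 with the smallest adjusted p in β-Mfn1/2DKO. Keap1 and Nfe2l2 were always included. These values cover every knockout library, except that Nfe2l2 has ranges in the single knockouts. For Ctrl they are the lowest, median and highest value. Genes of related lists were named if they passed 1.5-fold and averaged 100 or more normalized counts, except where stated. Members, lists and tests were chosen with earlier results of these data known.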

Additional observations from a re-analysis of the deposited data

Results flagged for a closer look

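In 14 of 152 sets of values (1 gene in 1 group) a single library lay far from the others by Dixon's criterion, which chance alone meets in about 1 in 20. In β-Mfn1/2DKO replicate 4, which had high acinar markers, normalized counts were high for Gpx4 (10913, others 8799 to 9285), Gpx8 (76.0, others 44.3 to 45.8), Sod3 (84.7, others 11.4 to 23.5) and Gsta4 (37.6, others 10.6 to 17.8). In β-Mfn1/2DKO replicate 5, which had the highest acinar markers, Slc7a11 was high at 991 normalized counts (others 429 to 553) and Gclm low at 5148 (others 5799.6 to 6005). The part of acinar RNA in these values was not tested. Prdx6 was high in β-Mfn1/2DKO replicate 2 at 4079 normalized counts (others 3611 to 3685).

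In β-Mfn2KO, Sod3 read 256 normalized counts in replicate 5 (others 13.4 to 16.9), Slc7a11 113 in replicate 3 (others 347 to 384) and Mfn1 1807 in replicate 4 (others 1683 to 1712). In β-Mfn1KO, Gstp1 read 8546 normalized counts in replicate 4 (others 6239 to 6420.3) and Gpx8 37.3 in replicate 3 (others 27.5 to 27.9). In Ctrl, Sod2 read 4592 normalized counts in replicate 4 (others 4217 to 4283) and Prdx1 8368 in replicate 6 (others 7494 to 7793).

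A difference in the effect of losing Mfn1 with and without Mfn2 passed the test for 6 members, by the interaction term of edgeR's fit, with log2 differences of −1.10 for Gpx2, −0.62 for Srxn1, −0.53 for Txn1, −0.48 for Prdx1, −0.30 for Prdx3 and 0.72 for Cat. In the fits without 1 library Prdx1 and Gpx2 passed in 20 of 20, Srxn1 in 18, Prdx3 in 11, Txn1 in 10 and Cat in 6, and the count fell to 2 without β-Mfn1KO replicate 1 or 2. With depth as a term, which rests on the 2 deep and 3 shallow β-Mfn2KO libraries, Prdx1, Gpx2 and Txn1 passed.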

How the results depend on the processing

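The number of members past the test in β-Mfn1/2DKO against Ctrl was 10 and stayed within 1.5 times that under the alternatives run, except with sequencing depth as a term (2 members). Depth as a term also gave 2 members against β-Mfn2KO (8 without it), 3 against β-Mfn1KO (13), 3 for the interaction (6) and 9 genes of the related lists (55). The share of all genes tested fell with it, to 2.54% against Ctrl, 5.88% against β-Mfn2KO, 4.31% against β-Mfn1KO and 3.18% for the interaction. Against β-Mfn2KO the count was 15 with DESeq2's Wald test, 13 with filterByExpr and 3 among libraries above 40000000 counts. DESeq2 gave 10 members for the interaction. In the fits without 1 of the libraries, 8 to 11 members of the β-Mfn1/2DKO comparison with Ctrl, 7 to 10 against β-Mfn2KO, 9 to 15 against β-Mfn1KO, 2 to 7 for the interaction, 0 to 0 in either single knockout and 47 to 59 genes of the related lists passed. The lowest interaction count was without β-Mfn1KO replicate 1 or 2.

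Leaving out β-Mfn1/2DKO replicates 4 and 5 together was chosen after seeing the data. It gave 8 members against Ctrl, 6 against β-Mfn2KO, 10 against β-Mfn1KO and 4 for the interaction. Of these, 6, 4, 7 and 4, respectively, were among the members that passed in the main fit. No value named in the text changed sign and stayed past the test. Of the values of single genes under the alternatives, 7283 kept their side of the threshold, 208 lost a call and 130 gained one. Most of the 7283 were values that did not pass in the main fit either, so this number does not measure how stable the calls were.

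With the replicate number as a block, 14 members passed against Ctrl (5 higher and 9 lower), the main 10 among them. In that fit 17.3% of all genes tested passed. The main test did not pair libraries by number, because the labels do not say what the number marks. Same-numbered libraries did deviate together, with a mean correlation of 0.17 over 27 pairs (lowest −0.15, 19 over 0.1). Pairs of other numbers averaged −0.04 over 122 pairs. Libraries of the same sex correlated at 0.13 over 73 pairs, and those of the other sex at −0.12 over 76 pairs. In every group the low numbers are female and the high ones male, so number and sex are mixed. With sex as a term, 5 members were higher and 6 lower against Ctrl, and 16.2% of all genes tested passed.

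Depth limits the Ctrl, β-Mfn1KO and first 3 β-Mfn2KO libraries most: Sod3 and Gsta4 rest on few reads there.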

Other observations

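Nnt, which encodes the mitochondrial transhydrogenase that makes NADPH and was chosen here after its values were seen, varied widely within every group. It read 599 to 1509 normalized counts in Ctrl, 438 to 1507 in β-Mfn1KO, 657 to 1934 in β-Mfn2KO and 504 to 1577 in β-Mfn1/2DKO, with coefficients of variation of 31.0%, 47.8%, 51.9% and 45.1%. Between β-Mfn1/2DKO and Ctrl it differed by −0.09 ± 0.33 on the log2 scale (SE; edgeR adjusted p = 0.894). The source of this spread was not tested.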
